A study of Homo sapiens with 9 samples.

Results

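ELFN1, TMEM132B, SRC and RBM19 are 4 human genes around which many accessible chromatin regions of hypoxic T47D breast cancer cells were not called when ZHX2 was knocked down. They were chosen by that measured count, so the count itself is a description here and not a finding. When each region is given to the protein-coding gene whose nearer end lies closest, within 50 kb, ELFN1 had 10 such regions, RBM19 had 9, and TMEM132B and SRC had 8 each. The values below use a wider assignment, in which a region belongs to a gene when it touches the gene's span or lies within 50 kb of either end with no nearer protein-coding gene. Under it the 4 genes, of 17997 protein-coding genes with at least 1 region in hypoxia with the control hairpin, held 80 of the 77451 regions of that list.

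T47D is an established luminal breast cancer line. The study profiled it by ATAC-seq, an assay whose transposase cuts and tags DNA where chromatin is open, in 9 samples that form 3 groups of 3: cells with a short hairpin RNA against ZHX2 in hypoxia (H-shZHX2), cells with a control hairpin in hypoxia (H-shCtrl) and cells with the control hairpin in normoxia (N-shCtrl). All groups share lentiviral infection and selection with hygromycin or puromycin, according to the vector. The oxygen level, the length of hypoxia and the number of hairpins or clones are not given in the sources used here, and lists of accessible regions cannot show how far ZHX2 RNA or protein was reduced.

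Each group is held as 1 list of called regions, with no values per sample. There is therefore no replicate spread and no test for any comparison here, and a called region is one that passed the authors' threshold in the list named. The lists held 62779 regions over 40.6 Mb in H-shZHX2, 77451 over 48.5 Mb in H-shCtrl and 90962 over 60.1 Mb in N-shCtrl. In bulk chromatin a region open in fewer cells and one less open in each cell cannot be told apart. A H-shCtrl region that no H-shZHX2 region touches by at least 1 bp is called lost below, as a name for that pattern of calls. Each region carries the authors' score, which is 10 times the −log10 q of the call, and a fold enrichment over the local background. Both rank regions within 1 list. How many reads went into a list is unknown. Among the weakest calls, those with a score of at most 100, the median fold was 2.87 in H-shZHX2, 2.62 in H-shCtrl and 2.67 in N-shCtrl, and by construction of a Poisson test a list made from fewer reads needs a higher fold for the same score. The part of read number in the counts below was not tested.

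ELFN1 is a leucine-rich-repeat transmembrane protein of synapses that binds metabotropic glutamate receptors. TMEM132B is a transmembrane protein of the TMEM132 family. SRC is a non-receptor tyrosine kinase that relays signals from growth factor receptors and integrins, and it is studied in breast cancer for its part in adhesion and invasion. RBM19 is a nucleolar RNA-binding protein, the counterpart of yeast Mrd1, that takes part in assembly of the small ribosomal subunit. Accessible regions at a gene's start usually mark its promoter, and those farther away include enhancers. ZHX2 itself is a nuclear zinc finger and homeobox protein known as a transcription regulator.

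The promoters are shown first because the contrast between a start that stayed called and a start that did not is found inside a single gene, ELFN1. Sequences are from RefSeq on GRCh38.p14, 250 bases before to 50 bases after an annotated start, written along the gene's own strand. The table matched 3 of the 4 genes. Capitals mark matches, on either strand, to the GC box (GGGCGG), the CCAAT box of those letters, the ETS motif (CCGGAAG) and the hypoxia response element (ACGTG). The ELFN1 start at the gene's outer end (chr7:1665814-1666113, plus strand) was touched by a region in all 3 lists. The ELFN1 start inside the gene (chr7:1670027-1670326, plus strand) was touched in H-shCtrl and N-shCtrl and not in H-shZHX2. The RBM19 start (chr12:113966276-113966575, minus strand) and the outer TMEM132B start (chr12:125186136-125186435, plus strand) were touched in all 3 lists.
ELFN1 outer start: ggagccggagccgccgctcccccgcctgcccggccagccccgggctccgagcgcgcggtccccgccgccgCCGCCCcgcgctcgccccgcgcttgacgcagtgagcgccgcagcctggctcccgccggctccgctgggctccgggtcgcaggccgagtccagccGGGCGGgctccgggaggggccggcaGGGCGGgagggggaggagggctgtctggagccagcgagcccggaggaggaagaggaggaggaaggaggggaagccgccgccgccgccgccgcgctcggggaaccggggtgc
ELFN1 inner start: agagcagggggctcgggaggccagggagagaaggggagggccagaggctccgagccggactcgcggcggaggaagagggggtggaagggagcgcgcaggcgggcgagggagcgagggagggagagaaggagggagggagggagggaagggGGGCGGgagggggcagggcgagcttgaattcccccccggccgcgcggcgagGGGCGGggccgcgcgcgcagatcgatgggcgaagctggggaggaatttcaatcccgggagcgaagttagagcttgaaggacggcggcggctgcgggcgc
RBM19 start: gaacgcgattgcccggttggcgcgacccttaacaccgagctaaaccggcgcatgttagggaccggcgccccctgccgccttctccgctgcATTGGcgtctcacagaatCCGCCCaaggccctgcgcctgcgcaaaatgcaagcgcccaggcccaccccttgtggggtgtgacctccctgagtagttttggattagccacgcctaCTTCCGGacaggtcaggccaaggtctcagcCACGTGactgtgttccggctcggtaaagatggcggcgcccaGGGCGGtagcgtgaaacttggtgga
TMEM132B outer start: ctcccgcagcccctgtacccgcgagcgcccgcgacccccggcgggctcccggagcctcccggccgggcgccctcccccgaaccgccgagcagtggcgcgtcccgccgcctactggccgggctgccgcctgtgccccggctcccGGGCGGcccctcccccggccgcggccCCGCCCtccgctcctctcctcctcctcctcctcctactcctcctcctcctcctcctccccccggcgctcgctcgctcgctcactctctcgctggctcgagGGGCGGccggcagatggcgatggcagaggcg

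The ELFN1 and TMEM132B promoters were rich in G and C: 82.0% at the outer ELFN1 start with 44 CpG, 73.3% at the inner ELFN1 start with 32 CpG, and 79.7% at the outer TMEM132B start with 40 CpG, against a median of 58.7% and 14 CpG over all 35116 promoters of the same length. Their only matches were GC boxes, 3 at the outer ELFN1 start, 2 at the inner ELFN1 start and 3 at the outer TMEM132B start. A GC box stands in 45.0% of all promoters and in 70.0% of those called in H-shCtrl, so its presence is common in both ELFN1 starts and among promoters at large. The RBM19 promoter, at 63.3% G and C, held 2 GC boxes, 1 CCAAT box, 1 ETS match and the palindrome CACGTG, which counts as 2 overlapping matches of the hypoxia response element. The CCAAT box is found in 34.6% of all promoters, the ETS letters in 10.3% and ACGTG in 21.4%. The other 5 motifs searched had no match in these 4 windows: the AP-1 letters TGANTCA (in 7.71% of promoters), the letters AGATAA of GATA factors (10.3%), the forkhead letters TGTTTAC (3.42%), the GRHL letters AACCGGTT (0.134%) and the TEAD letters GGAATG (14.0%). A match is a run of letters and shows no binding. Over all promoters, 3.60% of those touched by a H-shCtrl region, 640 of 17766, were touched by no H-shZHX2 region, and the inner ELFN1 start is one of these. ELFN1 was chosen for its lost regions, so nothing is read from that share.

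Around all 4 genes fewer regions were called in H-shZHX2 than in either control list, while the control lists were alike in number. Together the genes held 38 regions in H-shZHX2, 80 in H-shCtrl and 80 in N-shCtrl. These regions covered 17785 bp in H-shZHX2, 35055 bp in H-shCtrl and 40692 bp in N-shCtrl. Of the 80 H-shCtrl regions 49 were lost, or 61.2% (Wilson 95% interval 50.3% to 71.2%, counting error only), where 25.0% of all H-shCtrl regions were lost. The genes were picked for this count, so nothing is read from that gap. The 4 shares lay close together, at 60.9% for ELFN1, 63.0% for TMEM132B, 61.5% for SRC and 58.8% for RBM19.

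**Figure D1:**
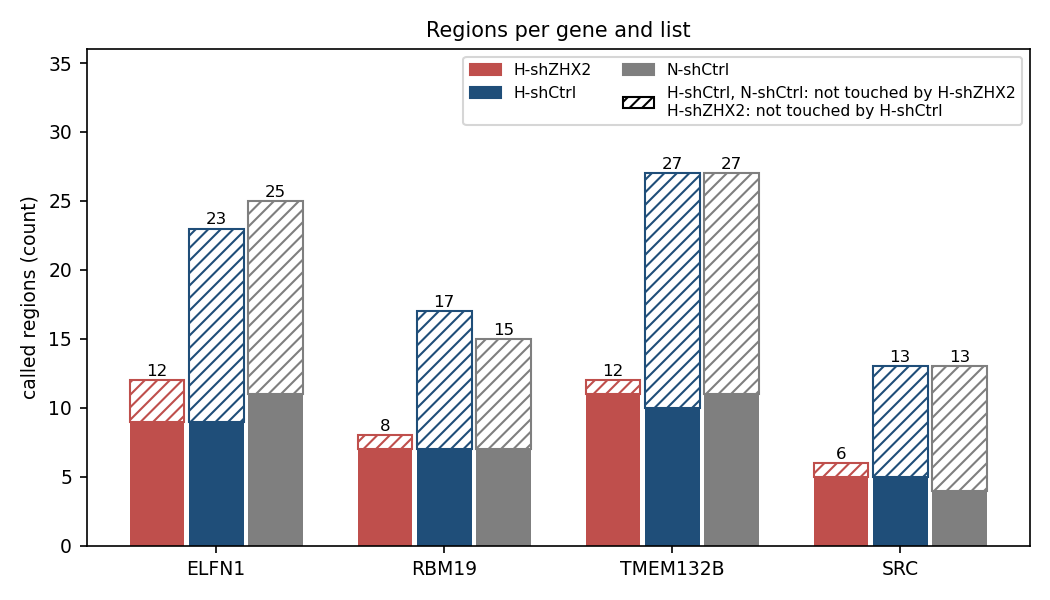
Called regions (count) of each gene in the 3 lists, H-shZHX2 in red, H-shCtrl in blue and N-shCtrl in grey. Hatching marks control regions that no H-shZHX2 region touches and H-shZHX2 regions that no H-shCtrl region touches. Each gene has between 6 and 12 regions in H-shZHX2, against 13 to 27 in H-shCtrl.

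**Figure D2:**
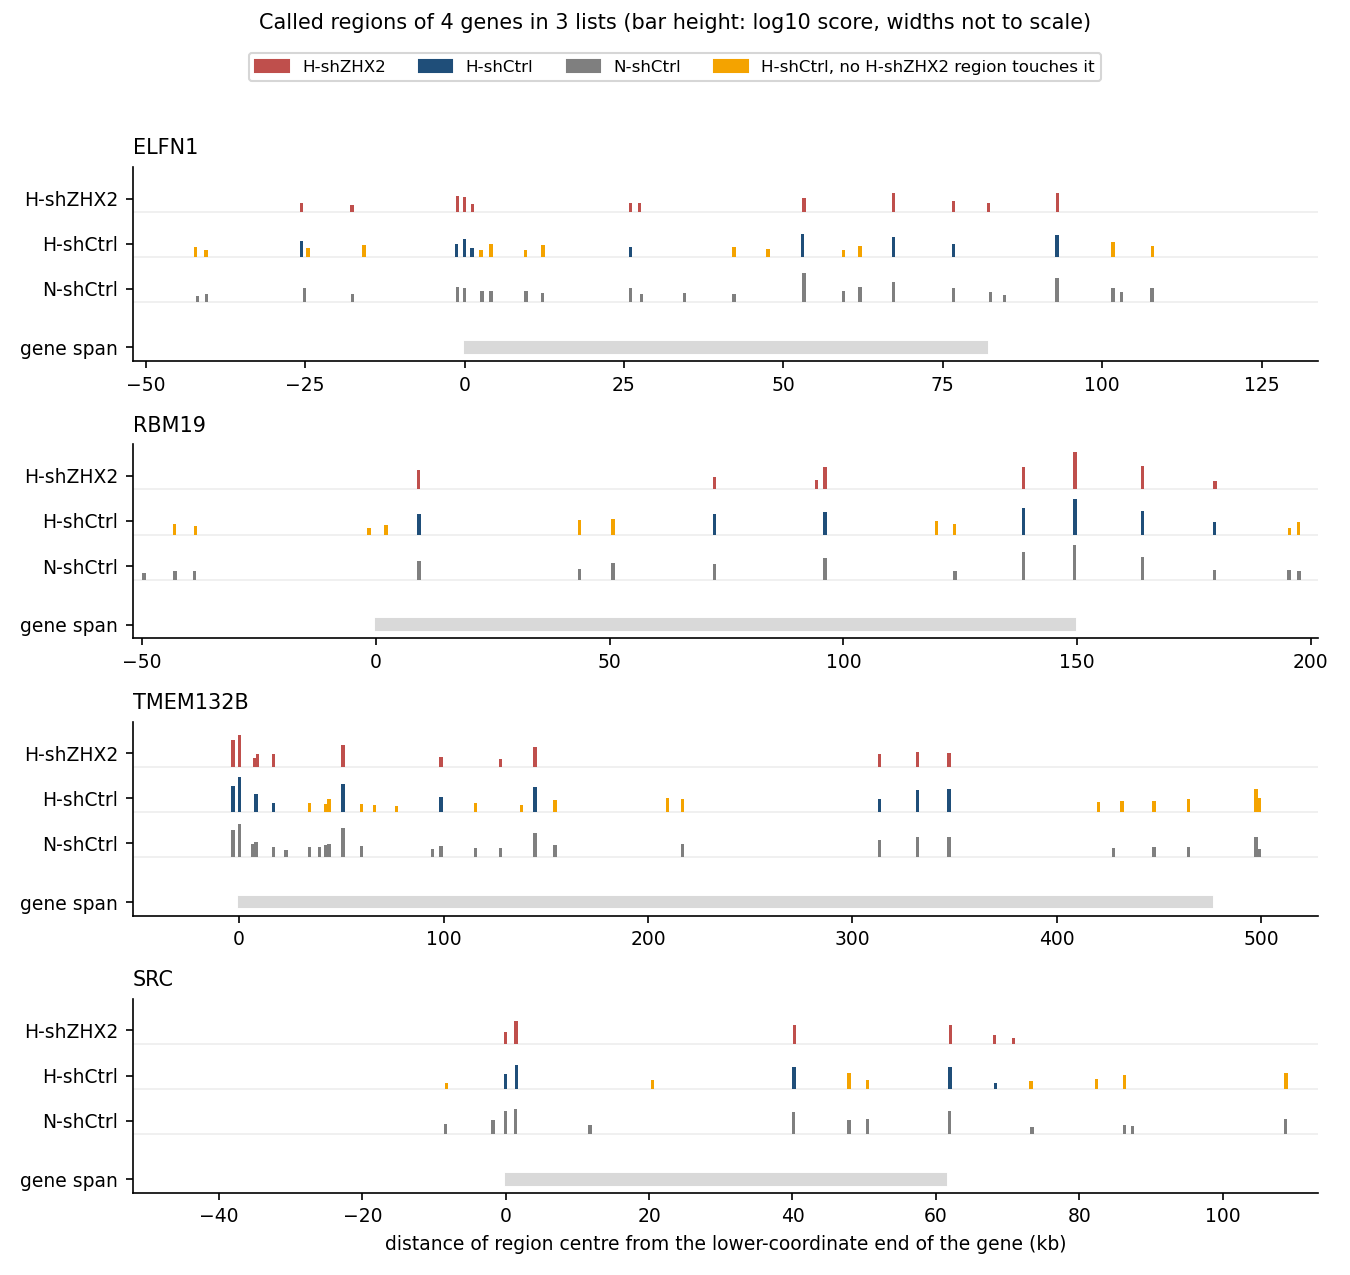
Position of every region (bar at its centre, in kb from the lower-coordinate end of the gene) in the 3 lists, with bar height on a log10 scale of the score within its own list and bar width not to scale. Orange bars are H-shCtrl regions that no H-shZHX2 region touches. They are mostly low bars, and at TMEM132B the last 6 stand in a row.

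ELFN1 spans chr7:1666064-1747946 on GRCh38, 81883 bp. It had 12 regions in H-shZHX2, 23 in H-shCtrl and 25 in N-shCtrl, and 14 of the 23 were lost. The region over the outer start had a score of 322 and a fold of 2.72 in H-shZHX2 (chr7:1665779-1666316), a score of 504 and a fold of 2.63 in H-shCtrl, and was also called in N-shCtrl. Just inside the gene 4 H-shCtrl regions in a row, over 10.1 kb (chr7:1668520-1678596), were lost. The inner start belongs to this run: its region had a score of 234 and a fold of 2.19 in H-shCtrl (chr7:1670107-1670341) and a score of 179 and a fold of 2.02 in N-shCtrl (chr7:1670066-1670337). The nearest H-shZHX2 region lay 2623 bp away. Among H-shCtrl regions of that score decile 35.2% were lost, so the loss of a call at this strength is common. All 4 regions of the run were also called in N-shCtrl.

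The strongest ELFN1 regions were called in all 3 lists. In H-shCtrl these were chr7:1718471-1719587 with a score of 979, chr7:1758470-1759506 with 858 and chr7:1733158-1733586 with 627. The first of them lies within LOC124901819, a small protein-coding gene annotated inside ELFN1, which has that 1 region only. The region over the start of ELFN1-AS1, an antisense RNA gene within the span, was also called in every list. It had a score of 234 in H-shCtrl (chr7:1741959-1743568). That score is the same as that of the lost region at the inner start. Of ELFN1's 12 H-shZHX2 regions 3 were touched by no H-shCtrl region, where 7.11% of all H-shZHX2 regions were and 1.83 were expected from score. They lay at chr7:1648215-1648622, chr7:1693290-1693693 and chr7:1748168-1748367. Their scores in H-shZHX2 were 102, 141 and 126. All 3 were called in N-shCtrl, as were 55.1% of all such regions.

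TMEM132B spans chr12:125186386-125662377, 475992 bp, the longest of the 4 genes. It had 12 regions in H-shZHX2, 27 in H-shCtrl and 27 in N-shCtrl, and 17 of the 27 hypoxic control regions were lost. The region over its outer start remained called and was strong, with a score of 3444 and a fold of 6.53 in H-shZHX2 (chr12:125186026-125186809) and a score of 5019 and a fold of 6.64 in H-shCtrl (chr12:125186018-125186810). RefSeq's other annotated starts in the gene, in the windows chr12:125326366-125326665 and chr12:125622202-125622501, were touched by no region in any list. With 49.3% and 37.7% G and C they are far less rich in G and C than the outer start.

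The last part of TMEM132B held the longest run of lost regions at the 4 genes. Between chr12:125533831 and chr12:125755463, 222 kb, H-shZHX2 had no region, where H-shCtrl had 6 regions of the gene and N-shCtrl had 5. The 6 lost regions span 78.8 kb (chr12:125606739-125685561), from inside the gene to beyond its end. Of these, 5 had H-shCtrl scores of 140 to 276. The sixth, chr12:125683774-125684163, had a score of 882 and a fold of 6.09 in H-shCtrl and a score of 578 and a fold of 5.64 in N-shCtrl (chr12:125683776-125684109). It lies 21397 bp beyond the gene's span, and the nearest H-shZHX2 region was 71301 bp away. Of all 23901 H-shCtrl regions with at least that score, 40 were lost, 0.167%. This region is the strongest lost one at genes chosen for their lost regions, so nothing is read from that share. It is the only lost region of the 4 genes with a score above the list's median of 421.

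SRC spans chr20:37344699-37406050, 61352 bp. It had 6 regions in H-shZHX2, 13 in H-shCtrl and 13 in N-shCtrl, and 8 of the 13 hypoxic control regions were lost. Both regions at its lower-coordinate end remained called: chr20:37345677-37346619 had a score of 906 and a fold of 4.22 in H-shZHX2, against a score of 1038 and a fold of 4.03 for its H-shCtrl counterpart, and the region over the end itself had a score of 192 in H-shZHX2 and 305 in H-shCtrl. The strong region inside the gene (chr20:37384689-37385120, H-shCtrl score 848) and the one just beyond the other end (chr20:37406436-37406950, H-shCtrl score 784) also remained called. Loss was in the weaker regions around them. A run of 4 lost regions, over 35.9 kb (chr20:37417845-37453702), lay beyond the higher-coordinate end with H-shCtrl scores of 123, 164, 261 and 340. Of these 4, 3 were called in N-shCtrl. The highest score among lost SRC regions, 347, belonged to chr20:37392371-37392821 inside the gene, also called in N-shCtrl. One region, chr20:37415341-37415692, was called with shZHX2 alone, with a score of 90.

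RBM19 spans chr12:113816740-113966325, 149586 bp. It had 8 regions in H-shZHX2, 17 in H-shCtrl and 15 in N-shCtrl, and 10 of the 17 were lost. Its start carried the strongest region of the 4 genes in H-shZHX2 and H-shCtrl: a score of 6949 and a fold of 10.6 in H-shZHX2 (chr12:113965914-113966710) and a score of 5352 and a fold of 8.26 in H-shCtrl (chr12:113965769-113966734). The other 5 RBM19 regions above the median score also remained called, with H-shCtrl scores of 660, 696, 849, 1037 and 1526. The lost regions had scores of 94 to 311. A run of 4 of them lay around the gene's lower-coordinate end, over 45.6 kb (chr12:113773554-113819189), where H-shZHX2 had no region for 68.1 kb. The first of these touches LINC01234, a long non-coding RNA gene. Elsewhere LOC124903025 held 1 lost region and LOC105369993 held 2. At the other genes LOC105375124 held 1 lost region, while LNCRI, ELFN1-AS1, LOC107984445 and LOC105372606 each held 1 that remained called. All of these are non-coding RNA genes. The share over all regions was not computed, so nothing is read from these counts. RBM19's region called only with shZHX2 (chr12:113910905-113911104, score 135) was in neither control list.

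At all 4 genes the H-shCtrl regions that were lost were weak ones. The 49 lost regions had a median score of 164 (88 to 882), a median fold of 2.91 and a median width of 307 bp. The 31 that remained called had a median score of 696 (91 to 5352), a median fold of 4.03 and a median width of 494 bp. The same contrast held over the whole list, where the median score was 168 for lost and 667 for retained regions. Of the genes' 21 regions above the median score 1 was lost (4.76%), beside 2.09% of all regions above it. Of the 59 at or below it 48 were lost (81.4%), beside 48.0% of all such regions. The genes were chosen for their lost regions, so nothing is read from either gap.

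**Figure D3:**
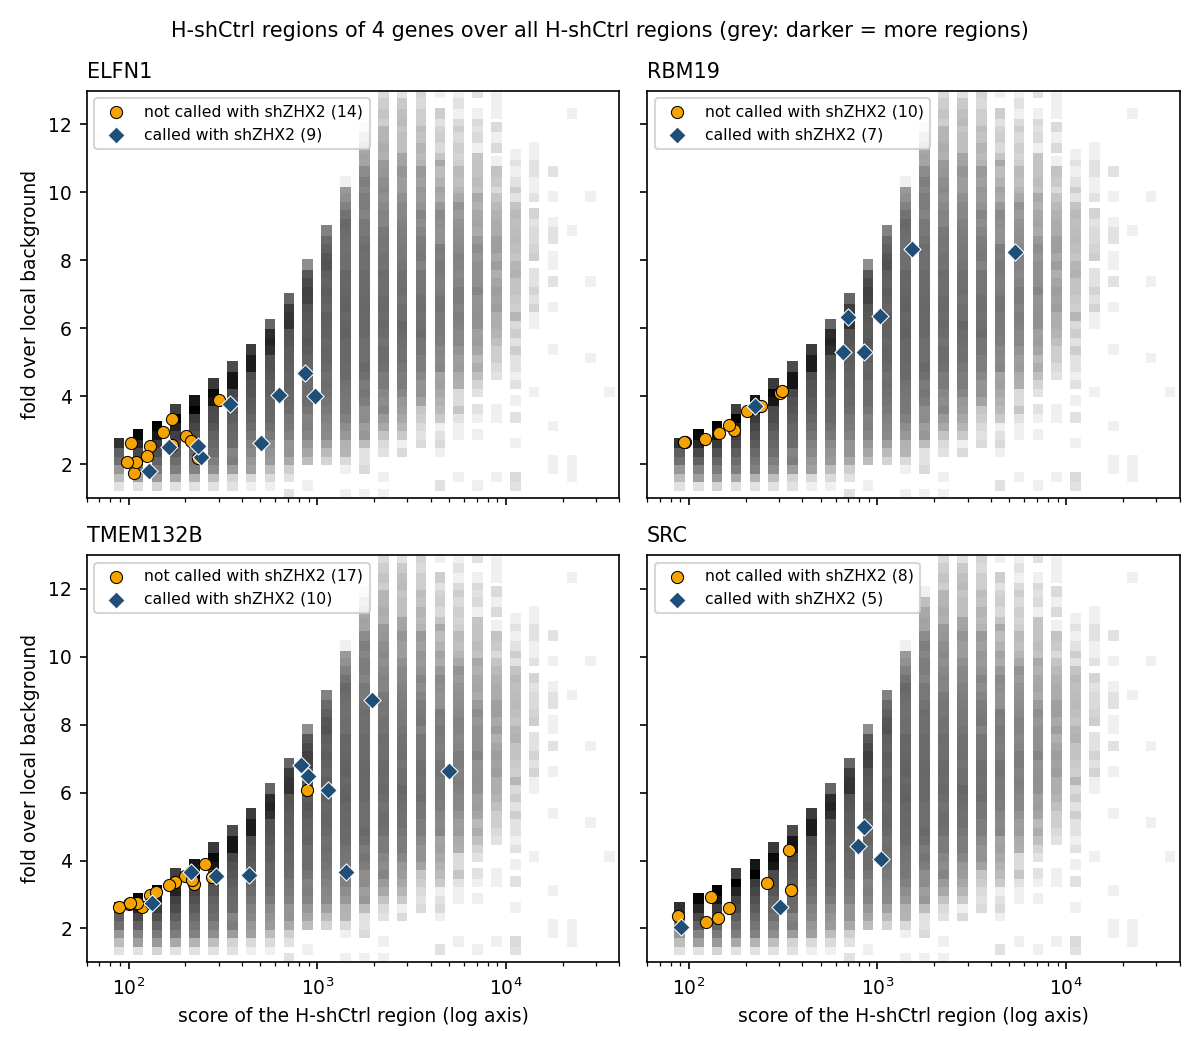
Fold over the local background against score (log axis) for the H-shCtrl regions of each gene, over all H-shCtrl regions in grey, darker where more regions lie. Orange circles were not called with shZHX2 and blue diamonds were. The orange circles sit at low scores except 1 TMEM132B region at a score of 882, and most ELFN1 and SRC points lie toward the lower edge of the grey field.

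Part of each count goes with the scores of the gene's regions. When every H-shCtrl region of a gene is given the share lost in its score decile over the whole list, which ran from 73.0% in the lowest decile to 0.0387% in the highest, the 4 genes would have 33.4 lost regions, where 49 were counted. The expected numbers were 10.9 for ELFN1, where 14 were counted, 11.4 for TMEM132B, where 17 were counted, 5.16 for SRC, where 8 were counted, and 5.86 for RBM19, where 10 were counted. The genes were picked for high counts, so nothing is read from these gaps.

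Among genes with equally many H-shCtrl regions the members were at or near the top, again by their choice. ELFN1's 14 was the highest of 20 genes with 23 regions, whose median was 7. TMEM132B's 17 was the highest of 4 genes with 27 regions, whose median was 9.5. RBM19's 10 was the highest of 49 genes with 17 regions, whose median was 5, and of 98 genes with 13 regions, median 3, 3 had at least SRC's 8. Under this wider assignment the members rank 5 for TMEM132B, 16 for ELFN1, 44 for RBM19 and 86 for SRC by lost regions, and the highest count was CDH4's 28 of 41. Under the assignment to the nearest gene end, which gives the members 8 to 10, 7 genes had 8 or more. Besides the 4 members these were TRPS1 with 9 (9.53 expected from score), GALNT9 with 8 (8.12 expected) and KCNK9 with 8 (6.71 expected). Why TRPS1, GALNT9 and KCNK9 are not members is not given in the sources used here. Under that assignment the members' own expected numbers were 8.22 for ELFN1, 5.62 for RBM19, 5.16 for SRC and 4.88 for TMEM132B, so not every gene with so high a count exceeded its number. Just outside that threshold, 17 genes had 7, among them SHANK2, GRM4, PTPRJ and BCL11B, with 9 to 18 H-shCtrl regions each and 3.45 to 8.24 expected.

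**Figure D4:**
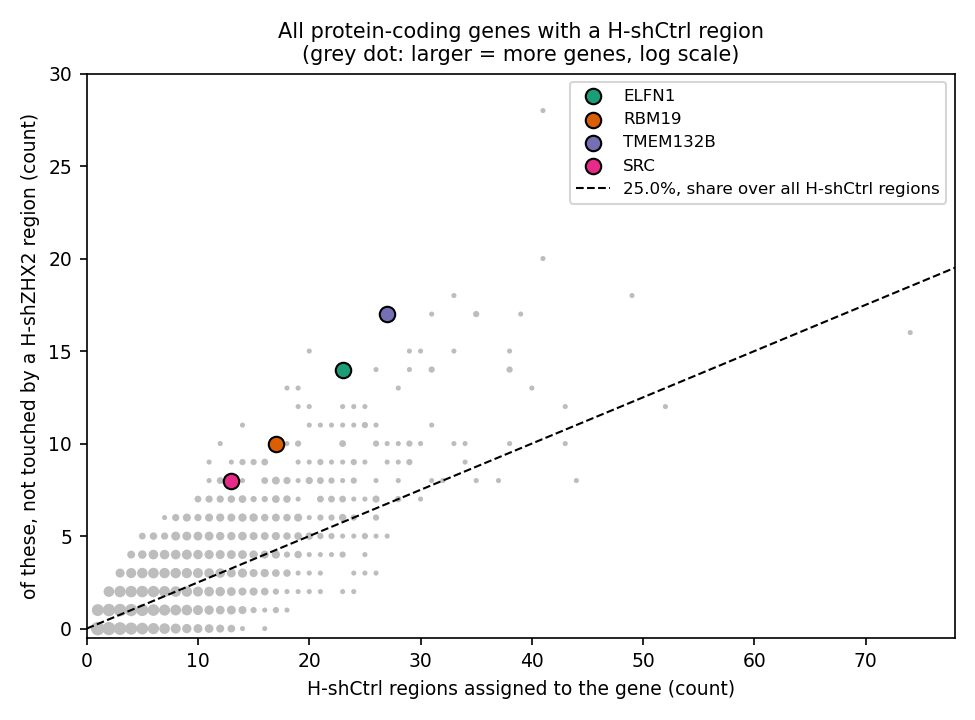
Lost regions (count) against H-shCtrl regions (count) for all protein-coding genes with a H-shCtrl region, with larger grey dots for more genes. The 4 genes, in colour, lie above the dashed line of 25.0% lost, ELFN1 with 14 of 23, RBM19 with 10 of 17, TMEM132B with 17 of 27 and SRC with 8 of 13.

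The lost regions lay both inside and outside the gene spans. All 5 H-shCtrl regions within 1 kb of an end of these genes remained called, where 0.303 would be lost by their scores and where 5.40% of regions at the ends of all protein-coding genes were lost, so 0 of 5 is near the background. Of the regions that touched a span 31 of 54 were lost (57.4%, beside 19.4% over all genes), and of those outside 18 of 26 (69.2%, beside 27.4%). The median distance to the nearer end was 29576 bp for lost and 14137 bp for retained regions, and over all genes 18633 bp for lost and 8802 bp for retained regions. At TMEM132B the order was the other way, with 55325 bp for lost and 74614 bp for retained regions. The distance of the lost regions to the nearest H-shZHX2 region had a median of 14240 bp, beside 11859 bp over all 19400 lost regions. An ELFN1 region at 759 bp was the 1 of the 49 within 1 kb (2.04%, beside 3.09% of all lost regions), and another ELFN1 region lay at 1036 bp. The gene table gives no exons, so regions inside a span were not split into exonic and intronic.

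Regions around the genes were counted in the same way. Within 1 Mb on either side, leaving out the gene's own regions, 41 of 173 H-shCtrl regions (23.7%) were lost around ELFN1, 37 of 99 (37.4%) around TMEM132B, 27 of 125 (21.6%) around SRC and 42 of 104 (40.4%) around RBM19. Their scores gave expected numbers of 44.9 around ELFN1, 34.7 around TMEM132B, 33.2 around SRC and 33.0 around RBM19. The shares over the whole chromosomes were 28.0% on chromosome 7, 26.4% on chromosome 12 and 27.2% on chromosome 20. The counts around ELFN1 and TMEM132B were close to these numbers, the count around SRC was below its own and the count around RBM19 above, with no test of either difference. Among protein-coding neighbours MAD1L1, a mitotic checkpoint gene next to ELFN1, lost 12 of 23 with 9.44 expected from score, and PSMG3, a proteasome assembly gene also near ELFN1, lost 0 of 4 with 0.825 expected. AACS, the acetoacetyl-CoA synthetase gene beside TMEM132B, lost 3 of 5 with 2.81 expected, and MANBAL beside SRC lost 0 of 5 with 0.716 expected. Each of these neighbours but MAD1L1 was within 1 region of its expected number.

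ELFN1 and SRC shared a feature that the rule did not use: their regions had low fold for their score in every list. Within the score decile of its own list, the median ELFN1 region stood at percentile 9.27 of fold in H-shZHX2, 8.57 in H-shCtrl and 9.18 in N-shCtrl. The median SRC region stood at percentile 11.3 in H-shZHX2, 10.2 in H-shCtrl and 12.5 in N-shCtrl. For ELFN1 all 12 H-shZHX2 regions, 21 of 23 H-shCtrl regions and 22 of 25 N-shCtrl regions were below the 25th percentile. For SRC the numbers were all 6 in H-shZHX2, 10 of 13 in H-shCtrl and 10 of 13 in N-shCtrl. These 2 genes so stood low in each list, while the other 2 did not: TMEM132B stood at percentile 51.4 in H-shZHX2, 41.1 in H-shCtrl and 37.3 in N-shCtrl, and RBM19 at 69.9 in H-shZHX2, 34.1 in H-shCtrl and 64.5 in N-shCtrl. By construction of the caller's test, a lower fold at equal score goes with a higher read level in the local background. What sets that level at ELFN1 and SRC was not tested. The feature was looked at with the data in view, and how many other genes stand as low was not counted. Many of these sites recur between the lists, so the lists are not separate observations.

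The normoxia list, which was not used to choose the genes, held most of the lost regions too. Of the 49 lost regions 36 were touched by a N-shCtrl region (73.5%), near the 78.1% over all lost regions of the list. By gene the number was 12 of 14 at ELFN1, 11 of 17 at TMEM132B, 6 of 8 at SRC and 7 of 10 at RBM19. When the regions of the 3 lists were merged, the 4 genes had 97 sites. Of these 29 were called in all 3 lists (29.9%, beside 58.4% of all 97804 merged sites), 35 in both control lists and not with shZHX2 (36.1%, beside 15.3%), and 13 in H-shCtrl alone (13.4%, beside 4.34%). The last 2 classes are made of lost regions, so their excess follows from the choice of genes. The low share called in all 3 lists is the other side of that choice, and nothing is read from it.

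The comparison of H-shZHX2 with the normoxic control shares the H-shZHX2 list with the rule. Of the genes' 80 N-shCtrl regions 47 (58.8%) were touched by no H-shZHX2 region, where the share over all N-shCtrl regions was 34.5%. Their scores gave an expected 41.6. By gene 14 of 25 were not called with shZHX2 at ELFN1, with 14.1 expected, 16 of 27 at TMEM132B, with 14.0 expected, 9 of 13 at SRC, with 5.85 expected, and 8 of 15 at RBM19, with 7.58 expected. The gaps are of a few regions, and since the H-shZHX2 list chose the genes, no order among them is read from these numbers.

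In the other direction, 6 of the genes' 38 H-shZHX2 regions (15.8%) were touched by no H-shCtrl region, where 7.11% of all H-shZHX2 regions were and 4.51 were expected from score. Of these 6, 4 were touched in N-shCtrl, and 55.1% of all such regions were. They were weak calls, with scores of 90 to 141, and at this number no difference between genes can be read.

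Hypoxia against normoxia, with the control hairpin in both, shares the H-shCtrl list with the rule. At the 4 genes 15 of 80 H-shCtrl regions (18.8%) were touched by no N-shCtrl region, where 6.44% of all H-shCtrl regions were, and 9.79 were expected from score. These were 3 at ELFN1, 6 at TMEM132B, 3 at SRC and 3 at RBM19. Of the 15, 13 are among the lost regions by which the genes were chosen, so nothing is read from this share. In the opposite direction 16 of 80 N-shCtrl regions were touched by no H-shCtrl region, where 20.6% of all N-shCtrl regions were, and 28.0 were expected from score. These were 6 at ELFN1, 6 at TMEM132B, 3 at SRC and 1 at RBM19. The share lies near that of all N-shCtrl regions, while the count lies below the number expected from score. The genes were chosen by regions of the H-shCtrl list, so nothing is read from either.

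Related genes were taken as lists, with the members left out of their own lists. The 4 other TMEM132 genes had 8 of 19 H-shCtrl regions lost (42.1%, expected 5.93): TMEM132C lost 4 of 6, TMEM132D 2 of 4 and TMEM132E 2 of 6. ELFN2, the paralog of ELFN1, together with the metabotropic glutamate receptor genes GRM2, GRM4, GRM6, GRM7 and GRM8 had 18 of 38 lost (47.4%, expected 11.1), most of them at GRM4 with 8 of 20 and ELFN2 with 6 of 8. These counts rest on few genes and have no test. The 8 other SRC family kinases had 7 of 34 lost (20.6%, expected 8.26), at LYN with 4 of 9 and BLK with 3 of 7. The 10 regulators and adhesion substrates of SRC had 11 of 69 lost (15.9%, expected 13.7), with PAG1 at 4 of 12, PTK2, which encodes focal adhesion kinase, at 4 of 15, CTTN at 2 of 4 and BCAR1 at 1 of 8. The 21 genes of the small subunit processome and ribosome assembly had 13 of 62 lost (21.0%, expected 10.7), with DDX10 at 3 of 9, HEATR1 at 2 of 3 and BMS1 at 2 of 8, and a gene end of all 21 was called in each of the 3 lists. For comparison, the pooled share lost over the 17997 protein-coding genes with a H-shCtrl region was 21.9%. Over the 1067 with at least 10 such regions, the median share lost by gene, a different measure, was 27.3%. Of these 1067 genes 65 (6.09%) lost more than 50%.

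Marker genes were looked up as a check of the cell line, and called gene ends alone do not tell the lineages apart, since most protein-coding genes had one. A region lay at a gene end of 9 of 10 luminal markers in each list, of 1 of 5 basal markers in H-shZHX2 and 2 of 5 in each control list, of 2 of 4 blood markers in H-shZHX2 and 3 of 4 in each control list, and of 2 of 4 fibroblast markers in each list. Over all 20033 protein-coding genes the number with a called gene end was 14032 in H-shZHX2, 14482 in H-shCtrl and 14856 in N-shCtrl. Of the luminal markers' 69 H-shCtrl regions 11 (15.9%) were lost.

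The counts at the 4 genes depended on the assignment and on how deep into the lists they were taken. With a window of 20 kb, RBM19 had 6 lost regions and SRC 5, and with all RefSeq genes as candidates RBM19 had 6 and SRC 4. With all lists cut by score to the length of the shortest, 8 regions were lost at TMEM132B, 5 at RBM19, 4 at ELFN1 and 3 at SRC, 20 of 47 in all (42.6%, beside 14.9% of all H-shCtrl regions in the cut list). With only the stronger 50% of each list by score, 4 were lost at TMEM132B, 2 at ELFN1, 1 at RBM19 and 0 at SRC, 7 of 21 in all (33.3%, beside 22.7%). Of these 21 regions 1 was lost in the full lists. The rest of the 7 were called in the full H-shZHX2 list, below that list's own cut. The cut lists are parts of the lists that chose the genes, so nothing is read from these shares.

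**Figure D5:**
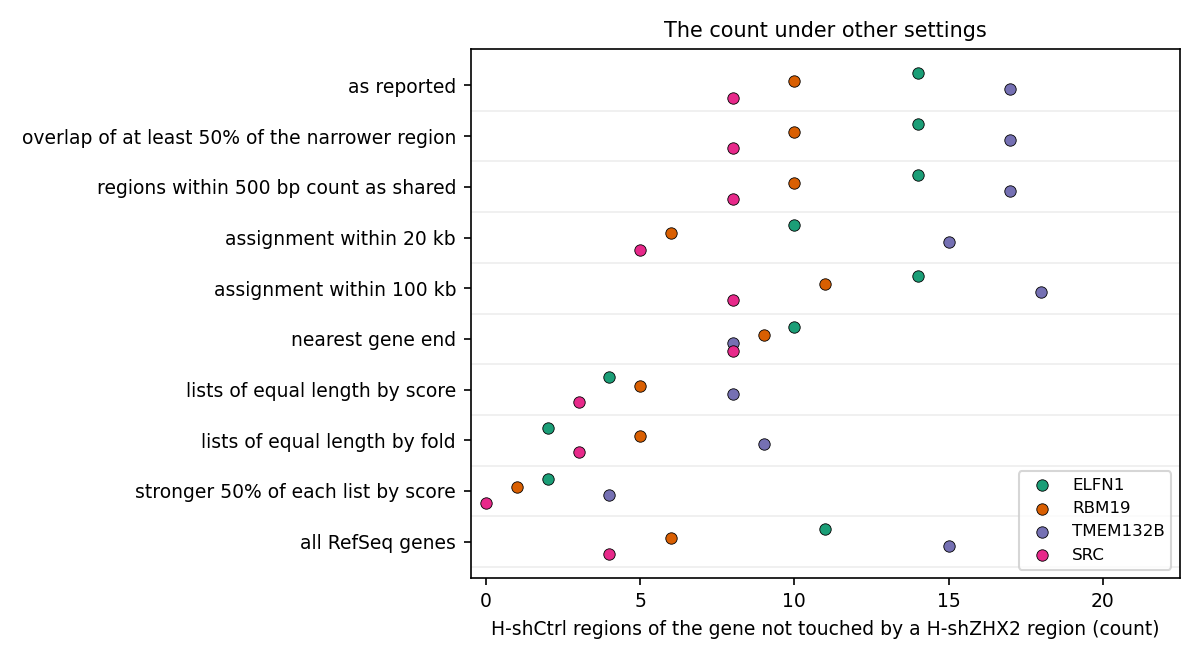
Lost regions (count) of each gene as reported and under 9 other settings, 1 row per setting. The counts do not move with the overlap that counts as shared and are lower when the lists are cut by score or fold, at SRC down to 0 in the stronger 50%.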

How the data were processed

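ATAC-seq was done on 9 T47D samples in 3 groups of 3, and the files are 3 lists of called regions, 1 per group, in 9 columns without a header. The submitters' processing notes name FastQC, Bowtie2, SAMtools, MACS2 and hg38 with no versions. Neither the way samples were pooled nor any shift of reads for the transposase is given in the sources used here. The authors' deposited columns hold a score, a fold (ratio to local background), and the −log10 of p and of q. The deposited score is, in nearly every region, the −log10 of q times 10 without its decimals. Ranks, percentiles and strata were taken within a list only, and 0 columns of values per sample were left unused. Where scores or folds of different lists stand side by side they are given as deposited, and no change in signal is read from them. Depth is unknown. Wilson 95% intervals cover counting error only, and regions are not replicates.

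Overlaps of at least 1 bp, assignment to RefSeq protein-coding genes (GRCh38.p14, same coordinates as hg38) and expected numbers from 10 score deciles were computed with Python 3.11.15, pandas 2.3.3, NumPy 2.4.6 and SciPy 1.17.1, after a check on simulated regions. Figures used matplotlib 3.10.9. The members and all lists were chosen with earlier results of these data known. Named genes are the members, genes at the picking count or 1 below it, protein-coding neighbours within 50 kb and, per related list, up to 4 genes with lost regions. MAD1L1 and PSMG3 lie outside that rule and were named after their values were seen, as were CDH4 and the non-coding RNA genes. Added with the data in view were the flank shares, fold within score deciles, fold at low scores, places and distances over all genes, promoter windows and expected numbers in the other list pairs. The other settings were wider and narrower overlap and windows, other assignments, and cut lists.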

Additional observations from a re-analysis of the deposited data

How the results depend on the processing

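The lost regions of the 4 genes, 49 in all, numbered 20 in lists of equal length by score, 19 in lists of equal length by fold and 7 in the stronger 50% of each list. Regions called with shZHX2 and not with shCtrl, 6 in all, numbered 3 with assignment to the nearest gene end, 10 and 14 in the lists of equal length by score and by fold, and 0 in the stronger 50%. Regions called in hypoxia and not in normoxia, 15 in all, numbered 9 with the nearest gene end and 3 in the stronger 50%. Regions called in normoxia and not in hypoxia, 16 in all, numbered 6 and 1 in the lists of equal length by score and by fold and 2 in the stronger 50%. Assigned H-shZHX2 regions, 38 in all, numbered 24 with the nearest gene end and 14 in the stronger 50%. Assigned regions in the lists of equal length by score and by fold and in the stronger 50%, 80 in each control list, numbered 47, 42 and 21 in H-shCtrl and 38, 27 and 20 in N-shCtrl. A cut list holds fewer regions by construction. In the stronger 50% a region can count as lost though the full H-shZHX2 list calls it. Some of the values could not move. Overlap settings leave assigned counts as they are, and lists of equal length leave H-shZHX2, the shortest list, uncut. Of the 66 values under other settings, summed over the genes, 46 stayed within 1.5 times the reported value and 20 did not. With the values of single genes added, 106 of 330 did not. By gene the lost regions also moved that far under other assignments: within 20 kb RBM19 had 6 and SRC 5, with all RefSeq genes RBM19 had 6 and SRC 4, and with the nearest gene end TMEM132B had 8. The expected 33.4 lost regions became 32.0, 33.4 and 33.9 under strata of fold, 20 strata of score, and strata of score and width.

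No paired analysis was possible because each group has 1 list and no values per sample, and for the same reason leaving out a replicate was not run. The number of reads per list is not known, so what depth limits was not tested.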
